A study of Drosophila melanogaster with 12 samples.

Results

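Gene expression was compared between SU58 and SU26, a pair of Drosophila melanogaster lines from Sweden, in the Malpighian tubules of adult females. The comparison uses 4 of the 12 libraries of the series, the 2 titled SU58xSU58 and the 2 titled SU26xSU26, and all genes in their count files. By title, each line was crossed to itself. The flies of both lines were 6 days old, were reared on cornmeal-molasses food at 20 °C under a cycle of 14 h light and 10 h dark, and received no treatment that the labels name. Tubules were dissected on ice, poly-A RNA was extracted, and paired reads of 125 bases were made on an Illumina HiSeq instrument. The 2 libraries of each line are called biological replicates by the labels, which do not say how many flies each holds, so p-values measure the spread between such libraries. The other 8 libraries are those of the line ZI418N from Zambia and of the F1 crosses SU26xSU58, SU58xZI418N and SU26xZI418N. They enter the same fit to estimate the spread, and so bear on which genes passed between the lines. The crosses also give levels of the same genes in libraries outside the 4 compared. Each line stands for 1 genotype, so the data describe these lines and not the Swedish population.

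Malpighian tubules are the excretory organ of insects. Principal cells drive ion transport with a V-ATPase proton pump and carry organic anions, cations and urate into the lumen, and stellate cells pass chloride and water under hormonal control. The tubule is also a main site of detoxification, in which cytochrome P450 enzymes oxidise foreign compounds, and glutathione S-transferases and UDP-glycosyltransferases conjugate them for export.

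The summed gene counts were 35963589 and 30834175 in SU58 and 31991613 and 37837870 in SU26. Levels are given in CPM, counts relative to the library size after TMM scaling. Log2 fold changes are SU58 over SU26 with an approximate standard error, and adjusted p-values are those of the edgeR quasi-likelihood test after Benjamini-Hochberg correction for 9302 genes. All 10 principal cell markers and all 9 stellate cell markers were detected well enough to be tested. The principal cell markers summed to 10076 and 10876 CPM in SU58 and to 18587 and 18286 CPM in SU26, and 3 of them were lower in SU58 (salt, NaPi-T and Uro). The other 7 summed to 4194 and 4071 CPM in SU58 and to 4432 and 4943 CPM in SU26, and 4 of the 10 had a fitted change above 0. The stellate cell markers summed to 1022 and 1029 CPM in SU58 and to 1015 and 949 CPM in SU26. In whole tubules, fewer cells of a type and less RNA per cell cannot be told apart. Some libraries held transcripts of other tissues or states. The 26 eggshell and germ line genes summed to 435 and 10.2 CPM in SU58 and to 41.3 and 7.55 CPM in SU26. The 38 chaperone genes summed to 6317 and 6137 CPM in SU58 and to 6890 and 11562 CPM in SU26. Calls that passed also without each of the 4 libraries are called stable here.

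SU58 and SU26 differed in 1639 of 9302 genes tested (17.6%), of which 750 were higher in SU58 (8.06%) and 889 lower (9.56%). Under scaling by total counts, which moved the median log2 fold change of all genes to 0.15 (0.01 after TMM scaling), the calls were 1195 higher and 556 lower. At least 2-fold differences made up 644 of the calls (6.92%). Stable calls numbered 427 (4.59%), 242 higher (2.6%) and 185 lower (1.99%) in SU58. Small differences were seldom stable. Of 585 calls under 1.5-fold 17 were stable, of 359 calls between 2- and 4-fold 170, and of 133 calls over 10-fold 66. Without SU58 replicate 1 the count of calls was 492, without SU58 replicate 2 it was 579 and without SU26 replicate 2 it was 791. The libraries of the lines did not overlap for 6109 genes (65.7%), so absence of overlap alone carries little weight here.

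**Figure D1:**
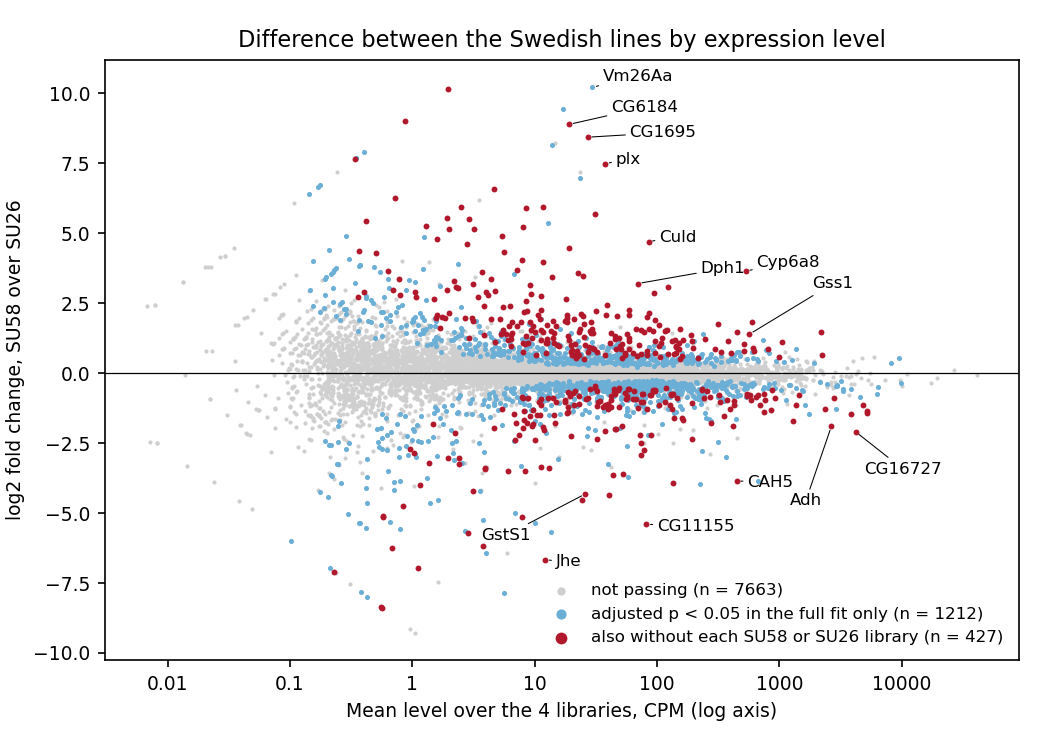
Log2 fold change of SU58 over SU26 against mean CPM over the 4 libraries on a log axis, 1 point per gene with a count in any of the 4. Stable calls, in red, reach from the edges of the plot to below 1.5-fold, where nearly all calls rest on the full fit alone, in blue. Vm26Aa marks an eggshell gene present in 1 SU58 library.

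The largest stable rises were genes well expressed in SU58 and close to the counting limit in SU26. CG6184 stood at 39.3 and 37.3 CPM in SU58, against 0.0991 and 0.0576 CPM in SU26, where the SU26 values rest on 3 and 2 reads, and its log2 fold change was 8.89 ± 0.56 (adjusted p = 3.07e-05). CG1695 stood at 56.8 and 51.8 CPM in SU58, against 0.0991 and 0.202 CPM in SU26. The gene plx, named pollux, stood at 78.4 and 71.7 CPM in SU58, against 0.33 and 0.49 CPM in SU26. For each of the 3 the libraries of a line lay close together and the lines were far apart. The other rises of 10 CPM or more in SU58 were smaller. The gene tinc, which encodes a multipass membrane protein, was 61-fold higher in SU58, and Culd, which encodes a protein with CUB and LDL receptor class A domains, was 26.1-fold higher, at 172 and 156 CPM in SU58, against 5.29 and 7.29 CPM in SU26. CG15772 was 59.8-fold higher, but 38.6% of its exon length is shared with a neighbouring gene in the Ensembl BDGP6 annotation. The remaining rises of this size were CG9981 (51.9-fold), loaf (37.3-fold), CG3635 (30.2-fold), CG4927 (22.1-fold), Amy-p, an alpha-amylase gene (20.1-fold), and CG10912 (16.6-fold).

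The largest stable falls took in hormone breakdown, a potassium channel and secreted proteins. Jhe, which encodes the juvenile hormone esterase, stood at 0.215 and 0.254 CPM in SU58, against 21.5 and 26.8 CPM in SU26, a 102-fold lower level (log2 -6.67 ± 0.43, adjusted p = 3.14e-05). CG11155, a glutamate receptor gene on chromosome 4, stood at 3.87 and 3.69 CPM in SU58, against 166 and 154 CPM in SU26, and had the lowest adjusted p of all genes tested (5.83e-08). Elk, an ether-a-go-go-like potassium channel gene, stood at 0.511 and 0.35 CPM in SU58, against 19.7 and 11.2 CPM in SU26. In all 3 both SU58 libraries lay far below both SU26 libraries. CAH5, a carbonic anhydrase gene, was the most abundant of the large falls at 55.8 and 60.7 CPM in SU58, against 694 and 984 CPM in SU26 (14.4-fold lower, adjusted p = 0.000288). Npc2b, which encodes a secreted protein of the Niemann-Pick C2 sterol-binding family, stood at 13.9 and 19.2 CPM in SU58, against 204 and 301 CPM in SU26. GstS1, the sigma class glutathione S-transferase, was 19.9-fold lower and GILT2, of the lysosomal thiol reductase family, 12.5-fold lower. Loxl1, a lysyl oxidase-like gene, was 11.3-fold lower, and FipoQ, an F-box gene, 11.2-fold lower. CG12910 was 23.3-fold lower, CG7968 20.2-fold and CG9192 12.3-fold.

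**Figure D2:**
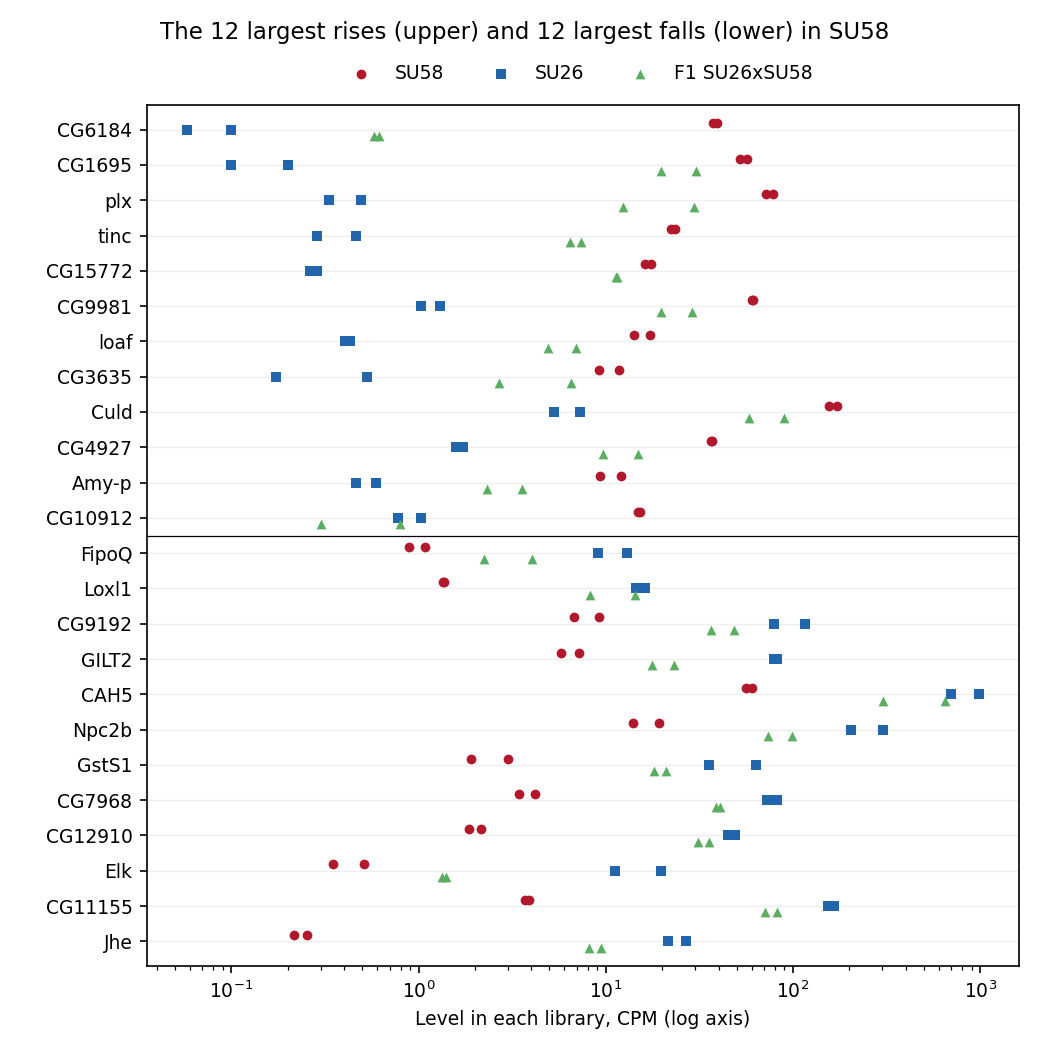
Level of the 12 largest stable rises (upper) and 12 largest stable falls (lower) of SU58 in each library, in CPM on a log axis, for SU58 (red circles), SU26 (blue squares) and their F1 SU26xSU58 (green triangles), 2 libraries each. The libraries of the lines do not overlap, as the rule for choosing these genes requires. The F1 lies between the lines for nearly all genes, with CG10912 an exception.

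Among genes that passed and did not overlap between the lines, 12 averaged at least 10 CPM in SU58 and under 1 CPM in SU26, of which 9 were stable, and 7 had such averages in the opposite direction, of which 3 were stable. The rule for these used the levels compared, so the counts are a description. The 12 include the eggshell gene Vm26Ab, whose average rests on SU58 replicate 1. It stood at 68.1 and 0.0636 CPM in SU58, against 0.033 and 0.0576 CPM in SU26. Among the unstable ones, phr, the gene of a photolyase that repairs ultraviolet damage, stood at 25.2 and 24.7 CPM in SU58, against 0.661 and 0.547 CPM in SU26 (adjusted p = 0.00673, stable but for 1 of the 4 fits). Marf1 stood at 46.6 and 46.8 CPM in SU58, against 0.496 and 0.259 CPM in SU26, and its call was lost without any 1 of the 4 libraries. The SU58 libraries of Marf1 lay close together. In SU26xZI418N the 2 libraries differed widely, at 1.48 and 128 CPM, and they enter the estimate of the spread used for its call. For Srg2 the SU26 libraries were far apart, at 49.3 and 4.29 CPM, against 0.35 and 0.699 CPM in SU58.

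Several very abundant genes of the tubule were lower in SU58. The 10 most abundant genes with a difference of at least 1.5-fold were all lower in SU58, and 6 of them were stable. This one direction depends on the cut of 1.5-fold. Cyp6g1, described below, was more abundant than any of the 10 and passed as higher in SU58 by less than 1.5-fold. Solute carriers made up 5 of the 10. CG17752 and CG16727, which encode proteins related to organic cation transporters, stood at 2808 and 2855 CPM in SU58, against 8085 and 7217 CPM in SU26 for CG17752 and at 1667 and 1526 CPM in SU58, against 7222 and 6442 CPM in SU26 for CG16727. The gene salt, which encodes a sodium-dependent solute transporter, stood at 1911 and 2178 CPM in SU58, against 6099.5 and 5173 CPM in SU26 (2.76-fold lower, adjusted p = 0.00087). These 3 genes lay well below SU26 in both SU58 libraries. NaPi-T, a phosphate cotransporter gene, was 1.54-fold lower at 2554 and 2674 CPM in SU58, against 4107 and 3966 CPM in SU26, and CG7084, another organic cation transporter relative, 1.79-fold lower. Uro, the urate oxidase gene that marks principal cells, stood at 1417 and 1953 CPM in SU58, against 3949 and 4204 CPM in SU26 (adjusted p = 0.0115), and its call was lost without SU58 replicate 1 (adjusted p = 0.113) and without SU26 replicate 2 (adjusted p = 0.0589). CG9259 and CG10513, of the ecdysteroid kinase-like family, were 2.54-fold and 1.68-fold lower. The call of CG10513 (adjusted p = 0.0498) held in 1 of the 4 fits that leave out a library of either line and was lost under both other scalings and with the replicate block. The call of CG7084 also held in 1 of those 4 fits. CG13309 was 1.84-fold lower. CG6726 was 2.21-fold lower, but 96.3% of its exon length is shared with another gene, so its reads cannot be assigned with certainty.

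Alcohol dehydrogenase was a further abundant gene at a lower level in SU58, and is named here after its values were seen. Adh, the alcohol dehydrogenase gene, stood at 1008 and 1252 CPM in SU58, against 4229.6 and 4174 CPM in SU26 (log2 -1.89 ± 0.17, adjusted p = 0.000163). Adhr, which is transcribed with it, stood at 156 and 203 CPM in SU58, against 659 and 664 CPM in SU26, and 93.9% of the exon length of Adh is shared with it. Adh was 3.72-fold lower in SU58 and did not overlap between the lines.

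**Figure D3:**
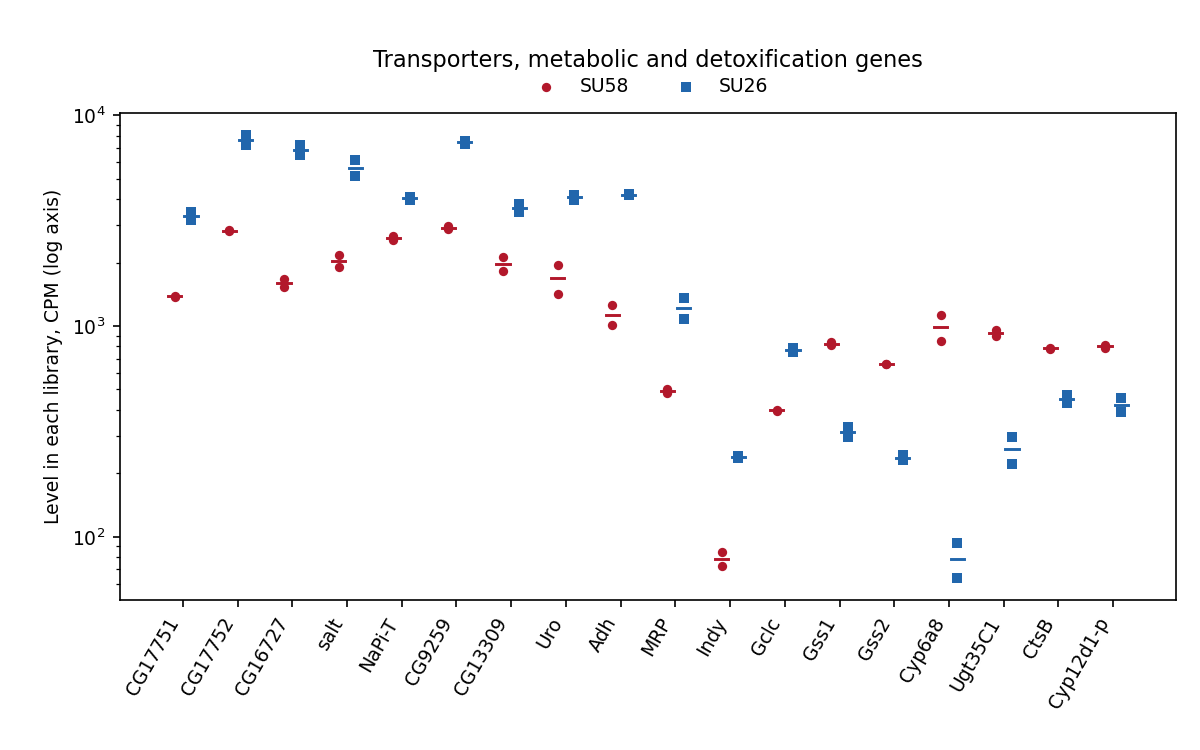
Level in each library, in CPM on a log axis, of 18 transporter, metabolic and detoxification genes in SU58 (red circles) and SU26 (blue squares), with short lines for the means of 2 libraries. Genes from CG17751 to Gclc were lower in SU58 and those from Gss1 to Cyp12d1-p higher, with no overlap between the lines.

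Detoxification genes differed in both directions, with large changes in single members. Of 69 cytochrome P450 genes tested, 22 were higher in SU58 and 13 lower, with a median log2 fold change of 0.24 (0.01 over all genes tested), so 50.7% passed against 17.6% of all genes. Of these, 9 and 7 were stable. Cyp6a8, of the xenobiotic-inducible CYP6 family, stood at 853 and 1126 CPM in SU58, against 63.8 and 93.6 CPM in SU26 (12.6-fold higher, adjusted p = 6.32e-05). Cyp6a14 went the other way, at 26.8 and 25.8 CPM in SU58, against 108 and 133 CPM in SU26. Cyp6a22 was 2.4-fold higher and Cyp6a16 2.82-fold higher. Cyp6g1, known for insecticide resistance when overexpressed, was the most abundant member at 11949 and 10555 CPM in SU58, against 6757 and 8618 CPM in SU26 and was 1.46-fold higher (adjusted p = 0.0367), a call that held in 1 of the 4 fits without a library. Cyp12d1-p was 1.89-fold higher at 813 and 786 CPM in SU58, against 458 and 390.2 CPM in SU26. Its near-identical neighbour Cyp12d1-d stood at 271 and 270.2 CPM in SU58, against 342 and 276 CPM in SU26 and did not pass (adjusted p = 0.747), and how the authors' counting split reads between these copies is not given in the sources used here.

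Conjugation enzymes differed in both directions. Of 29 UDP-glycosyltransferases tested, 12 were higher and 4 lower (55.2% passing, against 17.6% of all genes), with a median of 0.38, and 6 of the rises and 1 of the falls were stable. Of 31 glutathione S-transferases tested, 4 were higher and 11 lower (48.4% passing), with a median of -0.31, and 3 of the rises and 6 of the falls were stable. The counts were similar under scaling by total counts, with 12 higher and 4 lower for UDP-glycosyltransferases and 4 higher and 9 lower for glutathione S-transferases. Ugt35C1, the most abundant of the named UDP-glycosyltransferases, stood at 895 and 954 CPM in SU58, against 299 and 221 CPM in SU26 (3.56-fold higher, adjusted p = 0.00018). Ugt50B3 was 6.92-fold higher and Ugt304A1 2.99-fold higher, while Ugt37A3 was 3.86-fold lower. Within the GstE cluster of chromosome arm 2R neighbours went in opposite directions. GstE6 stood at 136 and 154 CPM in SU58, against 72.4 and 66.5 CPM in SU26 (2.09-fold higher, adjusted p = 0.000543), whereas GstE7 stood at 22.6 and 17.6 CPM in SU58, against 134 and 139 CPM in SU26 (6.77-fold lower, adjusted p = 0.000576). GstE8 was 4.76-fold lower.

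Single genes of glutathione synthesis, picked from the antioxidant list by their calls except for Gclm, stood apart in both directions. Gclc, which encodes the catalytic subunit of the first enzyme, glutamate-cysteine ligase, stood at 396 and 399 CPM in SU58, against 757 and 783 CPM in SU26 (adjusted p = 0.0025). Gclm, its modifier subunit, stood at 182 and 161 CPM in SU58, against 213 and 360.1 CPM in SU26 and did not pass (adjusted p = 0.199). Gss1 and Gss2, neighbouring genes of the second enzyme, glutathione synthetase, were both higher, Gss1 at 813 and 837 CPM in SU58, against 296 and 331 CPM in SU26 and Gss2 at 664 and 659 CPM in SU58, against 231 and 244 CPM in SU26. The folds were 2.63-fold for Gss1 and 2.79-fold for Gss2, and no library of one line reached those of the other. Of 22 antioxidant genes tested, which include Gclc, Gss1 and Gss2, 3 were higher and 6 lower (40.9% passing, against 17.6% of all genes), with a median of -0.24, and the 3 rises and 2 of the falls were stable. Prx2, a peroxiredoxin gene, was 2.43-fold lower at 222 and 239.7 CPM in SU58, against 581 and 542 CPM in SU26. Sod3, an extracellular superoxide dismutase gene, was 1.59-fold higher.

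Carboxylesterase and juvenile hormone genes differed in both directions too. Of 30 genes tested in this list, 10 were higher and 6 lower (53.3% passing, against 17.6% of all genes), and 5 of the rises and 2 of the falls were stable. Their median was 0.08, and -0.00 without SU58 replicate 1. The esterase genes alpha-Est6 and alpha-Est1, of the cluster on chromosome arm 3R, were 5.38-fold and 3.53-fold higher, alpha-Est6 at 67.4 and 64 CPM in SU58, against 11.6 and 12.8 CPM in SU26. Nlg2, a neuroligin gene, was 6.62-fold higher at a low level. Juvenile hormone is inactivated by its esterase and by epoxide hydrolases, and the genes of these enzymes, apart from Jhe, are named here after their values were seen. Jhedup, the neighbour and relative of Jhe, stood at 0.43 and 0.604 CPM in SU58, against 4.79 and 3.77 CPM in SU26 (adjusted p = 0.00221). The epoxide hydrolase genes went the other way, with Jheh2 at 261 and 273 CPM in SU58, against 99.1 and 139.9 CPM in SU26 (adjusted p = 0.00146), Jheh1 2.02-fold higher and Jheh3 1.92-fold higher. The exons of Jheh1 and Jheh2 overlap each other or neighbours over all of Jheh1 and 91.6% of Jheh2, so these 3 values are not independent.

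Organic solute transporters passed more often as lower than as higher in SU58. Of 38 tested, which include salt, 2 were higher and 12 lower (36.8% in either direction, against 17.6% of all genes), with a median of -0.32, and 5 of the falls were stable. Indy, the citrate transporter gene, stood at 72.6 and 85.1 CPM in SU58, against 238 and 242 CPM in SU26 (3.04-fold lower, adjusted p = 0.000288). MRP, a multidrug resistance protein of the ABC family, stood at 502 and 482 CPM in SU58, against 1362 and 1075 CPM in SU26 (2.47-fold lower, adjusted p = 0.000614). NAAT1, a neutral amino acid transporter gene, was 2.06-fold lower. Of 40 ion and water transport genes tested, which include NaPi-T, 3 were higher and 5 lower (20% passing, near the 17.6% of all genes), with a median of -0.06. These counts turned to 7 higher and 4 lower under scaling by total counts, and none of these calls was stable. Eglp2, an aquaglyceroporin gene, stood at 233 and 231 CPM in SU58, against 418 and 371 CPM in SU26, and its relative Eglp1 was 3.02-fold lower near the detection limit. Best2, a bestrophin channel gene, was 1.9-fold higher. The V-ATPase, the pump that energises secretion, had 2 of 22 subunits higher and none lower (9.09%, against 17.6% of all genes), neither of them stable.

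Among metal transport genes 1 of 25 tested was higher and 4 lower (20% passing, near the 17.6% of all genes). ZnT41F, a zinc transporter gene, stood at 94.9 and 94.8 CPM in SU58, against 47.8 and 47 CPM in SU26 (adjusted p = 0.00117) and was the stable member. ATP7, the copper-exporting ATPase gene, stood at 48.3 and 56 CPM in SU58, against 138 and 130.5 CPM in SU26 (adjusted p = 0.00752), and Ctr1B, a copper importer gene, at 46.1 and 48.8 CPM in SU58, against 118 and 101 CPM in SU26 (adjusted p = 0.0131). Zip71B, a zinc importer gene, was 1.45-fold lower. MtnA, a metallothionein gene, stood at 1581 and 1225 CPM in SU58, against 1066 and 609.6 CPM in SU26 and did not pass (adjusted p = 0.384).

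Septate junction genes, whose products seal the epithelium, had 5 of 24 lower and none higher (20.8% passing, near the 17.6% of all genes). Their median of -0.04 was close to that of all genes and turned to 0.10 under scaling by total counts. Ssk, which encodes a membrane protein of the smooth septate junction, stood at 259 and 271 CPM in SU58, against 575 and 602 CPM in SU26 (2.22-fold lower, adjusted p = 0.000288) and was stable. Its partner mesh stood at 118 and 136 CPM in SU58, against 193 and 263 CPM in SU26 (adjusted p = 0.0108). Gli and bark were 2.15-fold and 2.2-fold lower, but each call held in 1 of the 4 fits without a library.

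Proteasome genes were lower in SU58 by small amounts. Of 33 proteasome subunits tested 27 were lower in SU58 and none higher (81.8%, against 17.6% of all genes), and the fitted change was below 0 for all 33 (median -0.39). Rpt5, an ATPase of the regulatory particle, stood at 74.7 and 76.5 CPM in SU58, against 120.2 and 115 CPM in SU26 (1.56-fold lower, adjusted p = 0.00134), and was the one stable call. Prosalpha5, of the core particle, was 1.45-fold lower. The count depended on the libraries and the scaling more than the median did. Without SU58 replicate 1 a single subunit passed and without SU58 replicate 2, 3 passed, with medians of -0.38 and -0.38, and under scaling by total counts 7 passed, with a median of -0.25 against 0.15 for all genes. The summed level was 2702 and 2752 CPM in SU58 and 3528 and 3626 CPM in SU26.

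The nuclear genes of oxidative phosphorylation had 32 of 67 lower, none higher (47.8% passing, against 17.6% of all genes) and a median of -0.31. Without SU58 replicate 1 the count was 1 and under scaling by total counts 17. Cytochrome c oxidase subunit gene cype stood at 189 and 188 CPM in SU58, against 273 and 287 CPM in SU26 (adjusted p = 0.00334), and was the stable member. ND-30, of complex I, was 1.48-fold lower and ATPsynF, of the ATP synthase, 1.47-fold lower. In the tricarboxylic acid cycle 5 of 19 genes were lower and none higher (26.3% passing), with a median of -0.24, and 1 passed without SU58 replicate 1. Idh, the NADP-dependent isocitrate dehydrogenase gene, stood at 464 and 443 CPM in SU58, against 719 and 935 CPM in SU26 (adjusted p = 0.00405). In glycolysis and sugar handling 2 of 23 genes were higher and 6 lower (34.8% passing), and the stable calls were 2 of the falls. Hex-A, the main hexokinase gene, stood at 244 and 267 CPM in SU58, against 469 and 523 CPM in SU26 (adjusted p = 0.00233), and Gapdh1 at 681 and 711 CPM in SU58, against 1038 and 1083 CPM in SU26 (adjusted p = 0.00273). Glyp, the glycogen phosphorylase gene, was 1.35-fold higher.

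**Figure D4:**
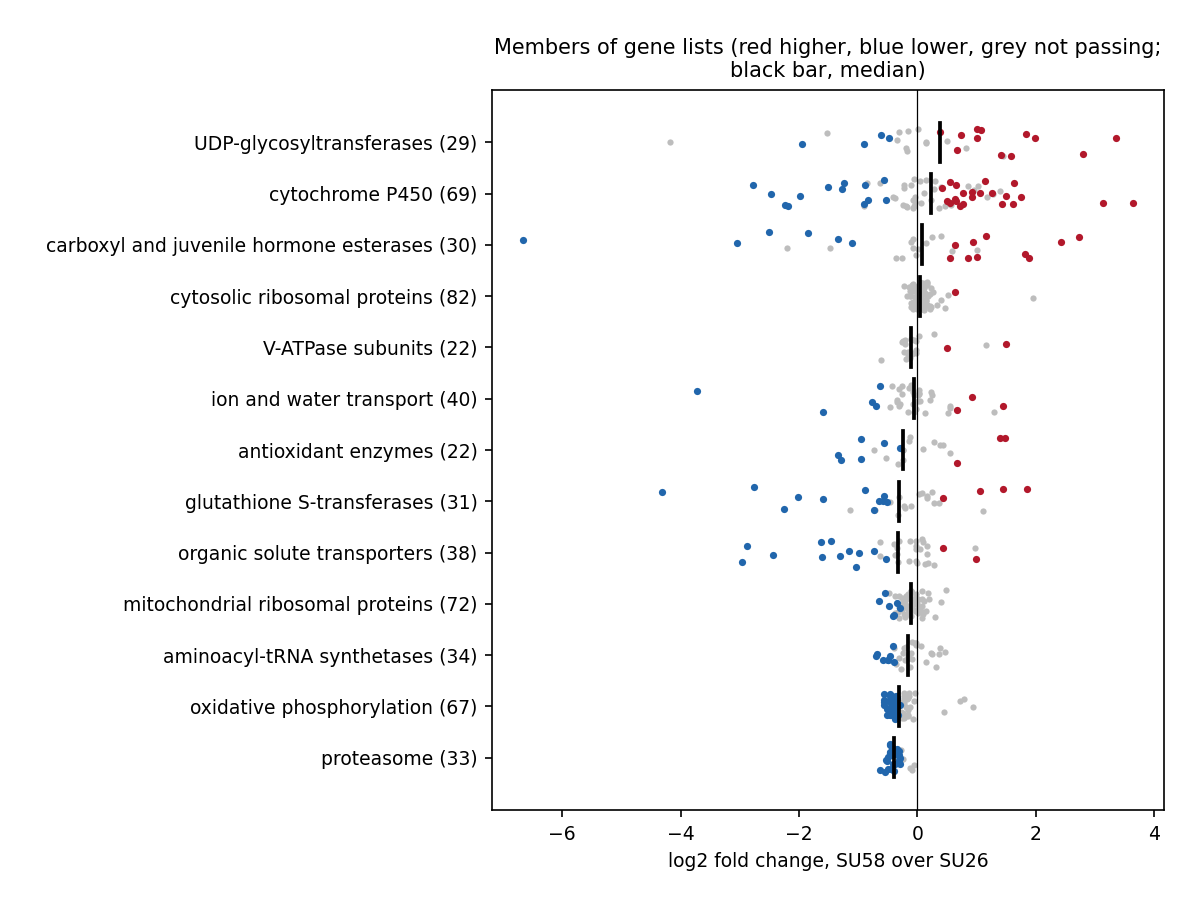
Log2 fold change of SU58 over SU26 for each tested member of 13 gene lists, with the number tested in brackets, genes passing at an adjusted p under 0.05 in red (higher) or blue (lower), and a black bar at the median. The proteasome and oxidative phosphorylation lie tightly left of 0, cytosolic ribosomal proteins tightly around it, and the detoxification families spread widely to both sides. Under scaling by total counts the medians of mitochondrial ribosomal proteins, the V-ATPase and ion and water transport turn positive.

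Genes of translation showed small differences. Of 82 cytosolic ribosomal protein genes 1 was higher (RpL5) and none lower, with a median of 0.05, and 11 were higher under scaling by total counts. Of 34 aminoacyl-tRNA synthetase genes 8 were lower and none higher (23.5% passing, median -0.16), and none passed without SU58 replicate 1. Of 72 mitochondrial ribosomal protein genes 7 were lower and none higher (9.72%, against 17.6% of all genes), and the median of -0.11 turned to 0.03 under scaling by total counts. Among translation factors 2 of 45 were higher and 8 lower (22.2% passing), against 6 higher and 3 lower under scaling by total counts. The stable members were eIF6, needed for the large ribosomal subunit, at 14 and 15 CPM in SU58, against 32.4 and 30.5 CPM in SU26, and eIF2D at 16.1 and 17.1 CPM in SU58, against 29.3 and 28.9 CPM in SU26. Of 28 lysosome and autophagy genes 6 were higher and 2 lower (28.6% passing, median 0.07). Without a library of either line 1 or 2 were higher and 1 or 2 lower, and 1 call in each direction was stable. CtsB, a cathepsin gene, stood at 781 and 784 CPM in SU58, against 468 and 432 CPM in SU26 (1.74-fold higher, adjusted p = 0.00288), and CtsF, another cathepsin gene, was 1.68-fold higher.

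Of 15 amino acid breakdown genes tested 4 were higher and 2 lower (40% passing, against 17.6% of all genes), with a median of 0.02. The 4 higher ones act on phenylalanine and tyrosine or recycle their cofactor. Tat, the tyrosine aminotransferase gene of the same list, did not pass. The gene hgo, homogentisate dioxygenase, stood at 16.6 and 16.3 CPM in SU58, against 2.68 and 1.9 CPM in SU26 (7.2-fold higher, adjusted p = 9.18e-05). GstZ2, the maleylacetoacetate isomerase gene of the next step, stood at 20.0 and 22 CPM in SU58, against 6.31 and 9.13 CPM in SU26 (2.72-fold higher, adjusted p = 0.0016). Faa, the fumarylacetoacetase gene of the last step, stood at 35 and 35.7 CPM in SU58, against 24.8 and 26.7 CPM in SU26 (adjusted p = 0.0274), and Dhpr, which regenerates the cofactor of phenylalanine hydroxylase, was 1.3-fold higher. Calls of hgo and GstZ2 were stable, and those of Faa and Dhpr were lost without any 1 of the 4 libraries. Among 15 genes of urate and purine metabolism 1 was higher and 4 were lower (33.3% passing), 3 each under scaling by total counts. The higher gene, veil, a 5′-nucleotidase gene, stood at 161 and 174 CPM in SU58, against 20.8 and 24.9 CPM in SU26 (7.32-fold higher), though its exons lie wholly within those of other annotated genes.

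Of 23 hormone and amine receptor genes tested 3 were higher and 1 lower (17.4% passing, near the 17.6% of all genes). Dh44-R2, a receptor of a diuretic hormone, stood at 105 and 105 CPM in SU58, against 62 and 59.7 CPM in SU26 (adjusted p = 0.00527), and Lkr, the leucokinin receptor of stellate cells, at 66.5 and 66.7 CPM in SU58, against 45.6 and 45.4 CPM in SU26 (adjusted p = 0.00684). The call of Dh44-R2 was stable and that of Lkr was not. Of 32 tubule and stem cell transcription factor genes tested 4 were higher and 4 lower (25% passing). Among them esg, which marks renal stem cells, stood at 8.66 and 10.4 CPM in SU58, against 2.71 and 3.14 CPM in SU26 (3.25-fold higher, adjusted p = 0.000385), and chinmo at 15.7 and 17.8 CPM in SU58, against 6.31 and 5.24 CPM in SU26 (2.91-fold higher, adjusted p = 0.000636). These 2 were the stable members. The gene fkh, a forkhead factor, was 1.53-fold lower at 282 and 303 CPM in SU58, against 439.8 and 456 CPM in SU26, and crc, a basic leucine zipper factor of the stress response, 1.47-fold lower, with 73.5% of its exon length shared. Jra and kay, the fly Jun and Fos, were 2.79-fold and 1.95-fold lower, with the SU26 libraries far apart for Jra at 57.7 and 108 CPM.

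Of 31 genes of the IMD, Toll and JAK/STAT pathways, which signal in immunity, 1 was higher and 5 lower (19.4% passing, near the 17.6% of all genes), 3 each under scaling by total counts. The stable calls were those of dome and imd. The gene dome, the JAK/STAT receptor, stood at 45.5 and 46.7 CPM in SU58, against 90.4 and 85.9 CPM in SU26 (1.91-fold lower, adjusted p = 0.000432). The adaptor gene imd stood at 7.93 and 7.44 CPM in SU58, against 14.4 and 15 CPM in SU26 (1.91-fold lower, adjusted p = 0.000728). Socs36E, an inhibitor and target of JAK/STAT signalling, stood at 27.3 and 33.2 CPM in SU58, against 77 and 98.5 CPM in SU26 (2.9-fold lower, adjusted p = 0.0046). Of 40 antimicrobial peptide and recognition genes tested 6 were higher and 8 lower (35% passing). AttC was detected by 1 and 0 reads in SU58, against 30 and 60 reads in SU26 (adjusted p = 0.00102), the one stable call of that list. AttB stood at 0.108 and 0.286 CPM in SU58, against 12.7 and 2.13 CPM in SU26 and Drsl2 at 0.0807 and 0.0954 CPM in SU58, against 10.7 and 5.13 CPM in SU26, with SU26 libraries that differ widely, and neither call was stable.

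Genes of other tissues and states set the limits of the comparison. Vm26Aa, a vitelline membrane gene, stood at 118 and 0 CPM in SU58 and at 0.0991 and 0 CPM in SU26, and Vm26Ab and Vml had the same pattern, so their calls rest on SU58 replicate 1. In SU26 the heat shock genes Hsp70Aa, at 42.7 and 416 CPM, and Hsp26, at 10.6 and 143 CPM, were high in replicate 2, against 40.7 and 41 CPM and 7.69 and 7.54 CPM in SU58, and neither passed (adjusted p = 0.144 for Hsp70Aa and 0.124 for Hsp26). The clock gene tim stood at 35.9 and 92.6 CPM in SU58, against 929.5 and 29.6 CPM in SU26 and did not pass (adjusted p = 0.254). Its partner per stood at 8.82 and 9.89 CPM in SU58, against 63.9 and 24.3 CPM in SU26 (adjusted p = 0.0274). Of 16 clock genes tested per alone passed (6.25%, against 17.6% of all genes), and its call was not stable. A difference of at least 2-fold between the libraries of a line, at a mean of 10 CPM or more, was found for 16 of 5298 genes in SU58 and 64 of 5249 genes in SU26. The genes of this paragraph other than the vitelline membrane genes were named after their values were seen. The part of eggshell, heat shock and clock transcripts in the other differences was not tested beyond the fits without each library.

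Differences were spread over the genome. The share of genes passing was 15.3% on X (236 of 1542), 19.1% on 2L, 19% on 2R, 16.2% on 3L, 18% on 3R and 22.1% on the small chromosome 4 (15 of 68). On chromosome 4, 11 genes were higher and 4 lower. The 13 mitochondrial genes tested had none that passed. The gene with the lowest adjusted p was CG15772 on X, CG7968 on 2L, CG12910 on 2R, Dph1 on 3L, tinc on 3R and CG11155 on 4. Dph1, which encodes an enzyme of diphthamide synthesis, stood at 125 and 127 CPM in SU58, against 12.8 and 14.5 CPM in SU26 (9.22-fold higher, adjusted p = 1.16e-06).

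Some stable differences of at least 2-fold sat in neighbouring genes that moved the same way. In the order of genes tested along the Ensembl BDGP6 annotation, 49 of 299 placed genes of this kind lay in 23 runs, 3 of them with 3 genes. Pldn, CG14135 and Dph1 on 3L were higher, CG14135 at 28.4 and 28.7 CPM in SU58, against 8.49 and 7.75 CPM in SU26 and Pldn at 62.3 and 64 CPM in SU58, against 27.1 and 27 CPM in SU26, with part of the Pldn exons shared. CG17751, CG17752 and CG16727 on 3R, the solute carriers described above with a further relative, were lower, CG17751 at 1393 and 1376 CPM in SU58, against 3463 and 3182 CPM in SU26. CG13659, CG31370 and CG31436 on 3R, ecdysteroid kinase-like genes, were lower, by 5.68-fold for CG13659, 3.68-fold for CG31370 and 2.77-fold for CG31436. Pairs included Jhedup with Jhe, GstE7 with GstE8, GILT3 with GILT2, Gss1 with Gss2, CG9312 with the chitinase gene Cht5 (7.49-fold higher), and CG11155 with CG32017 on chromosome 4. These genes were chosen by their values, and where exons overlap, as in Adh and Adhr, the pair may count the same reads. How many runs as many genes would form by position alone was not tested.

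The same genes were then examined in libraries outside the 4 compared. These libraries entered the fit that estimated the spread, so they bear on which genes passed and were stable. SU58xZI418N and SU26xZI418N carry 1 genome copy of a Swedish line beside a ZI418N copy, so the lines differ in both genome copies and these hybrids in 1. Between these hybrids 192 genes passed (2.06%), 147 higher in SU58xZI418N (1.58%) and 45 lower (0.484%), and leaving out 1 library moved this count between 57 and 1537. The libraries of SU26xZI418N were the least alike of any genotype, with a correlation of log2 CPM over genes of 0.950, against 0.981 to 0.990 in the other genotypes. Between the hybrids, the median log2 fold change of eggshell and germ line genes was -3.89 without SU26xZI418N replicate 1 and 0.39 without replicate 2. For transposon silencing and small RNA genes these medians were -2.53 and 0.14. Replicate 2 thus held more of these transcripts than replicate 1. Their part in the numbers of genes passing between the hybrids was not tested. Without SU26xZI418N replicate 1 the count was 1537, and without SU26xZI418N replicate 2 it was 82. Of the 427 stable genes 389 had the same direction in the hybrids (91.1%), against 5111 of all 9302 genes tested (54.9%), and 122 of them passed there, none in the opposite direction. Without SU26xZI418N replicate 2, 390 of the 427 had the same direction (91.3%, against 58.1% of all genes) and 66 passed, and without SU26xZI418N replicate 1, 375 did (87.8%, against 54.1%) and 170 passed. Of the 1639 genes that passed between the lines 1186 had the same direction (72.4%), of the 750 higher ones 607 (80.9%) and of the 889 lower ones 579 (65.1%). Of the 1148 genes whose call was lost without SU58 replicate 1, 741 had the same direction (64.5%). For the 302 stable genes of at least 2-fold, the median size of the log2 fold change was 1.88 between the lines, and the median in the same direction was 0.71 between the hybrids (0.72 without SU26xZI418N replicate 1 and 0.70 without replicate 2).

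**Figure D5:**
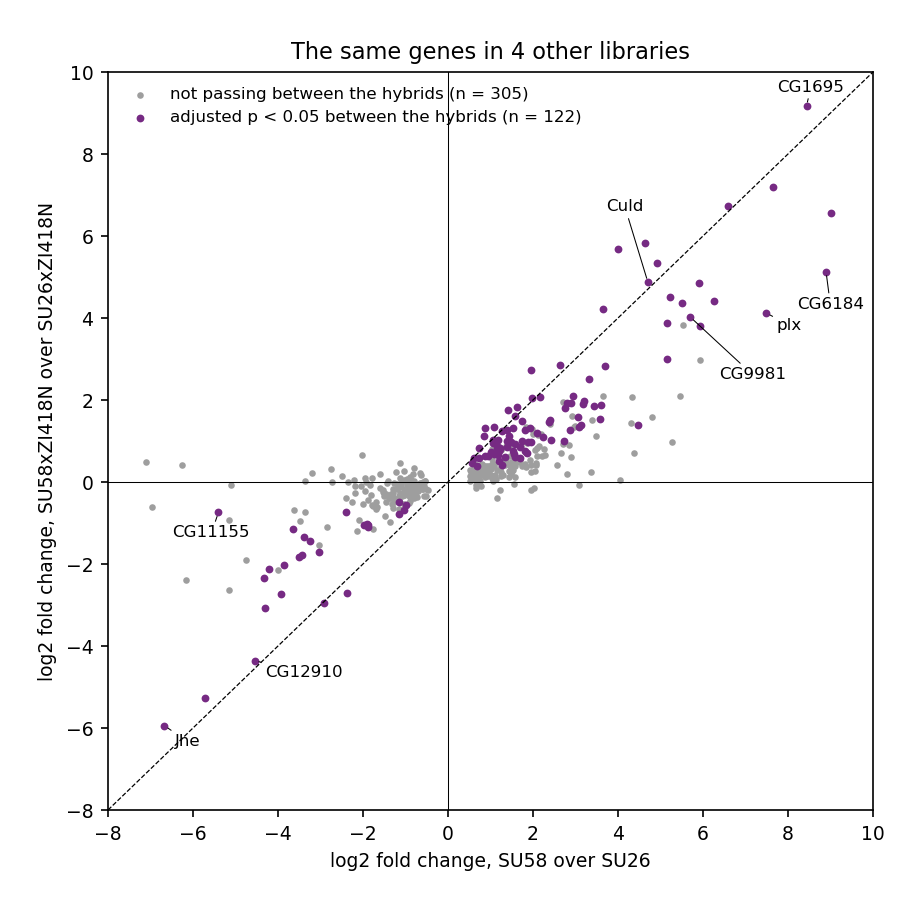
Log2 fold change between hybrids, SU58xZI418N over SU26xZI418N, against that between lines, SU58 over SU26, for the 427 stable genes; purple points also passed between the hybrids (122 genes), and the dashed line marks equal change. Most points lie in the upper right and lower left, and on the side of the dashed line nearer to no change in the hybrids.

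Single genes varied in how far they differed between the hybrids. CG1695 stood at 16.9 and 16.7 CPM in SU58xZI418N, against 0.0269 and 0.0249 CPM in SU26xZI418N, where the SU26xZI418N values rest on 1 read each (adjusted p = 0.000322). Jhe stood at 0.178 and 0.0236 CPM in SU58xZI418N, against 6.96 and 5.55 CPM in SU26xZI418N (log2 fold change -5.94, adjusted p = 0.000322). Cyp6a8 was likewise far apart, at 366 and 345 CPM in SU58xZI418N, against 18.2 and 20.2 CPM in SU26xZI418N. For these 3 genes both SU58xZI418N libraries lay far from both SU26xZI418N libraries, and the call of the lines kept its direction. GstE7 stood at 98.9 and 69.8 CPM in SU58xZI418N, against 81 and 55.5 CPM in SU26xZI418N, with no pass (adjusted p = 0.57). Of the abundant genes lower in SU58, log2 fold changes were negative for CG16727 (-0.92), CG6726 (-0.35), CG9259 (-0.30), salt (-0.29) and CG17752 (-0.04). They were positive for CG10513 (0.75), Uro (0.17), CG7084 (0.09), NaPi-T (0.06) and CG13309 (0.04). None of these genes passed between the hybrids. The proteasome had a median of 0.00 between the hybrids and oxidative phosphorylation a median of 0.04, beside -0.39 and -0.31 between the lines. Without SU26xZI418N replicate 2 these hybrid medians were 0.06 for the proteasome and -0.05 for oxidative phosphorylation, and without replicate 1 they were -0.04 and 0.14. UDP-glycosyltransferases had a median of 0.38 and glutathione S-transferases of 0.20 between the hybrids, the second opposite in sign to the lines. Without SU26xZI418N replicate 2 the median of glutathione S-transferases was 0.06, and without replicate 1 it was 0.32. MtnA, which did not pass between the lines, was higher in SU58xZI418N at 475 and 688 CPM, against 29.3 and 27.3 CPM in SU26xZI418N (adjusted p = 0.00837), a call lost without SU26xZI418N replicate 2 (adjusted p = 0.0693).

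The F1 of both lines lay between them for most genes. For 293 of the 302 stable genes of at least 2-fold the mean of SU26xSU58 lay between those of SU58 and SU26 (97%), against 58.2% of all genes tested, whose lines lie closer together. Jhe stood at 9.39 and 8.13 CPM in the F1, Culd at 89.8 and 58.2 CPM, and CAH5 at 303 and 648 CPM. Lying between the lines did not always mean lying midway. CG6184 stood at 0.577 and 0.611 CPM in the F1, far nearer to SU26 than to SU58. Elk stood at 1.41 and 1.33 CPM in the F1, far nearer to SU58 than to SU26. CG10912 stood at 0.30 and 0.798 CPM in the F1, at or below its level in SU26 (1.02 and 0.778 CPM) and far below SU58 (14.8 and 15.2 CPM).

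Genes linked by earlier studies to expression differences between African and other flies did not all differ between the Swedish lines. CHKov1, an ecdysteroid kinase-like gene, stood at 39 and 39.1 CPM in SU58, against 38.7 and 39 CPM in SU26 (adjusted p = 0.975). The gene fiz stood at 3776 and 3763 CPM in SU58, against 2894 and 3789 CPM in SU26 (adjusted p = 0.398). Neither passed.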

How the data were processed

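The files the authors deposited hold 1 count per gene and library, with columns for identifier, CG number, chromosome and length, per the file headers. Not given in the sources used here are aligner, counter, genome build, annotation, strand setting and treatment of shared reads. The tables list 13919 genes, of which 13748 were named by identifier and 167 by CG number. Total counts ranged from 30834175 to 43479929 over the 12 libraries, and at the level of most named genes the spread between libraries limits precision more than counting does. No pair of replicates was a copy, as checked on counts (mean chi-square per gene 13.1 in SU58 and 86.2 in SU26).

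Genes were filtered with filterByExpr and scaled with TMM factors, and 1 mean per genotype was fitted to all 12 libraries with edgeR 4.0.16 in R 4.3.3. SU58 minus SU26 and SU58xZI418N minus SU26xZI418N were tested by the quasi-likelihood test, with p-values adjusted by Benjamini-Hochberg over 9302 genes and a threshold of 0.05. Standard errors are the absolute log2 fold change over the square root of F. Alternatives were RLE and total count scaling, no filter, DESeq2 1.42.0, only the 4 libraries compared, a replicate block, robust estimation, and leaving out libraries. On simulated data, 50.5% of 99 genes changed 2-fold and 73.7% of 99 genes changed 4-fold were recovered, with 2 false calls. The simulation changed genes in SU58 alone, a smaller share than the calls in the data, and otherwise gave all genotypes the same means. It held no library with transcripts of other tissues or states, so its false calls cannot be carried over to the data.

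The rule for naming genes took up to 12 rises and 12 falls that were stable, had at least 10 CPM in the higher line and did not overlap between lines, the 10 most abundant calls of at least 1.5-fold without overlap, up to 4 calls by lowest adjusted p in each list with at least 3, the call with the lowest adjusted p on each chromosome arm, and Jhe, fiz, MtnA, Cyp6g1, Cyp12d1-p, Cyp12d1-d and CHKov1. Other genes were named after their values were seen. Members and lists were chosen with earlier results of these data known. Shared exons and gene order come from the Ensembl BDGP6 annotation, whose build may differ from that of the authors.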

Additional observations from a re-analysis of the deposited data

Results flagged for a closer look

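For 29 genes named by the rule the difference between the hybrids was not the same as that between the lines. The value is the log2 fold change of SU58xZI418N over SU26xZI418N minus that of SU58 over SU26, and it passed an interaction test in the same edgeR fit (adjusted p under 0.05 over 9302 genes). In all, 113 genes passed that test, 109 of them with a larger difference between the lines and 4 with a larger one between the hybrids, and 2187 had an unadjusted p under 0.05. The libraries of SU26xZI418N are the least alike of any genotype, and without its replicate 2, 49 genes passed, and of the 29 named genes all kept their sign and 16 passed. Those that did not were AttC, CG13309, CG9192, CG9981, GstE8, Hex-A, Indy, Nlg2, Rpt5, alpha-Est1, brp, imd and zetaTry. Without SU26xZI418N replicate 1, 1382 genes passed, all 29 among them. These fits were chosen after seeing the data. The lines differ in both genome copies and the hybrids in 1, and the named genes were chosen for their difference between the lines. Both hybrids carry a ZI418N copy, so the log2 fold change between them also depends on the level from that copy. The interaction test does not allow for this, and whether the levels of the copies add up was not tested.

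Positive values belong to genes that were lower in SU58 and less so, or not, in SU58xZI418N. They were CG11155 (4.66), Elk (4.21), GstE7 (3.06), CG9192 (2.95), GILT2 (2.49), Cyp6a14 (2.09), brp (2.07), CG7968 (1.99), GstE8 (1.77), Ugt37A3 (1.74), Indy (1.45), eIF6 (1.08), Hex-A (1.03), CG13309 (0.92), imd (0.82) and Rpt5 (0.61). AttC (6.68) and zetaTry (6.35) belong to them too, but each had 1 read in all in SU58, so their fitted values depend on the prior count. GstE7 passed between the lines with a log2 fold change of -2.76, against 0.31 between the hybrids. CG11155 passed with -5.40 between the lines and also with -0.74 between the hybrids. It stood at 216 and 238 CPM in ZI418N, 112 and 118 CPM in SU58xZI418N, and 200 and 185 CPM in SU26xZI418N.

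Negative values belong to genes that were higher in SU58 and less so in SU58xZI418N. They were CG4927 (-3.08), tinc (-2.12), hgo (-1.95), Nlg2 (-1.72), CG9981 (-1.67), veil (-1.59), alpha-Est6 (-1.40), alpha-Est1 (-1.37), Dph1 (-1.22), Cyp6a16 (-1.22) and Cyp6a22 (-0.84). No sample was compared with others of its group, since each group holds 2.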

How the results depend on the processing

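Of 152 named genes, 81 kept their direction and their side of the threshold in all 20 alternatives and 71 changed in at least 1. The count of 1639 genes differing between SU58 and SU26 stayed within 1.5 times under both scalings, no filter, DESeq2 (1939), the 4 libraries alone (1864), robust estimation (1626) and the leaving out of any library of another genotype. Leaving out 1 library gave counts from 492 (SU58 replicate 1) to 1939, with 579 without SU58 replicate 2 and 791 without SU26 replicate 2, and leaving out SU58 replicate 1 and SU26xZI418N replicate 2 together gave 618. Between the hybrids 192 genes differed, with 640 by DESeq2, 7 with only the 4 libraries compared and 46 without both of those libraries, and leaving out 1 library gave counts from 57 to 1537. In each of these the cause was not tested, and a fit with fewer libraries has fewer degrees of freedom.

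The sign turned for Vml (-1.47 without SU58 replicate 1 and -1.47 without both), Vm26Aa (-3.90 and -3.88), fiz (-0.0067 without SU26 replicate 1) and CHKov1 (-0.0037 with RLE, -0.0038 with DESeq2, -0.0031 without ZI418N replicate 2 and -0.0034 without SU26xZI418N replicate 2). The last 2 genes did not pass in the full fit. Over the fits without 1 library, log2 fold changes reached up to 9.74 for Vml, 14.13 for Vm26Aa, 0.39 for fiz and 0.017 for CHKov1.

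Replicate numbers were not shown to pair libraries. The deviations of same-numbered libraries from their line means correlated at 0.119 between SU26 and SU58 and from -0.223 to 0.319 over all 15 pairs of genotypes. With the replicate block 1629 genes differed between the lines and 162 between the hybrids. With 2 libraries a group, simulated 2-fold changes were missed in part, so genes that did not pass were not shown to be alike.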

Other observations

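The counts for 3 further gene lists follow. Of 23 imaginal disc growth factor and chitinase-like genes tested 4 were higher in SU58 and 2 lower (26.1% passing, against 17.6% of all genes, median 0.32, 0.16 without SU58 replicate 1). Cht5, a chitinase gene, stood at 6.56 and 7.6 CPM in SU58, against 0.727 and 1.15 CPM in SU26 (7.49-fold higher, adjusted p = 0.000389). Its neighbour CG9312, named after its values were seen, stood at 215 and 227 CPM in SU58, against 28.6 and 23.8 CPM in SU26 (8.43-fold higher, adjusted p = 3.16e-05). Both were stable and lay far above SU26 in both SU58 libraries. Of 21 takeout, Niemann-Pick C2 and odorant binding protein genes tested 3 were higher and 5 lower (38.1% passing). Npc2a, which encodes a sterol-binding protein, stood at 38.9 and 41.1 CPM in SU58, against 72.8 and 74 CPM in SU26 (1.84-fold lower, adjusted p = 0.00237). Of 24 transposon silencing and small RNA genes tested 2 were higher and 1 lower (12.5% passing, below the 17.6% of all genes). Hen1, the methyltransferase of small RNAs, stood at 12 and 12.5 CPM in SU58, against 4.79 and 4.93 CPM in SU26 (2.52-fold higher, adjusted p = 0.0019) and was the stable member.

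Among genes of other tissues, brp, a synaptic active zone gene, stood at 0.323 and 0.318 CPM in SU58, against 5.78 and 6.14 CPM in SU26 (18.4-fold lower, adjusted p = 5.58e-05), while the 20 neuron and photoreceptor genes summed to 60.2 and 58 CPM in SU58 and 64.4 and 57.5 CPM in SU26. Of the 11 neuron and photoreceptor genes tested 1 was higher and 2 lower (27.3% passing, against 17.6% of all genes). Mal-A5, a maltase gene, was 3.41-fold lower at 4.22 and 3.59 CPM in SU58, against 12.1 and 14.5 CPM in SU26. Of 27 gut digestive enzyme genes tested, which include Mal-A5 and Amy-p, 3 were higher and 3 lower (22.2% passing). In the line ZI418N, 104 of the 185 stable genes that were at least 2-fold higher in SU58 lay nearer to SU26 (56.2%), and 73 of the 117 that were lower in SU58 lay nearer to SU58 (62.4%). Of all 9302 genes tested 43.1% lay nearer to SU26 and 56.9% nearer to SU58.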
